A study of Mus musculus with 6 samples.

Results

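The 10 genes described here are commonly used to mark recruited monocytes, phagocytes, and lipid-associated macrophages. They were *Ly6c2*, *Plac8*, *Cd14*, *Cd68*, *Lyz2*, *Itgax*, *Gpnmb*, *Trem2*, *Lgals3*, and *Spp1*. Each was taken by its symbol from the 48440 rows of the deposited count table, whatever its values. All 10 passed the filter on low counts that left 18593 genes for testing.

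The libraries came from dorsal root ganglia (DRGs), the ganglia that hold the cell bodies of sensory neurons, of male mice of WT genotype. In 3 libraries the L3/4 DRGs of one side had been microinjected with AAV5-*Gfp*, an adeno-associated virus that expresses green fluorescent protein. In the other 3 they had received AAV5-*V1* mixed with AAV5-*V2* (AAV5-*V1+V2*), viruses that carry 1 variant each of *NIS-lncRNA*, a long noncoding RNA. The comparison was made to find transcripts that differ in the DRG when this RNA is raised. The text deposited with the data gives tissue collection at 5 weeks in one place and 4 weeks in another. The mice's age, the number of animals behind a library, and any pooling are not given in the sources used here, so the p-values measure only the spread between these libraries, which may be technical. Each group had a virus of its own, and the virus preparation and the RNA it carried cannot be told apart. The level of *NIS-lncRNA* itself was not analysed here.

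Total counts per library ranged from 32025612 to 34764282, and the 10 genes took between 0.0206% and 0.139% of them. The tissue label was met by summed markers of sensory neurons (2300 to 4032 counts per 1000000, CPM), Schwann cells (3333 to 4122 CPM), and satellite glia (624 to 825 CPM) in every library. CPM set each count against the library total after TMM normalization, which corrects for differences in RNA composition. Because whole ganglia were sequenced, fewer cells of a type and less RNA per cell cannot be told apart, and the same holds for more.

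Monocytes leave the blood, enter inflamed tissue, and turn into macrophages there. In the mouse, the classical or inflammatory monocytes are known by a high surface level of Ly-6C. Macrophages that engulf dying cells or myelin load their lysosomes with lipid, and many then take on a lipid-associated programme that depends on the receptor TREM2 and includes *Gpnmb*, *Spp1*, *Itgax*, and *Lgals3*. DRGs hold resident macrophages of their own around the neuronal cell bodies and along the fibres. None of the 10 genes is limited to macrophages. Neutrophils also express *Lyz2* and *Plac8*, dendritic cells express *Itgax*, and some large sensory neurons express *Spp1*.

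The DNA in front of 4 of these genes and 1 copy is shown, for members that were called (*Itgax*, *Cd68*, *Lyz2*) and for *Spp1*, which was not. *Plac8* and *Ly6c2*, called with larger fold changes than *Cd68*, are not printed, and each held GAGGAA in the window before its first listed start. Each line gives bases upstream of the RefSeq start site in assembly GRCm38.p6, 5′ to 3′ in the direction of the gene, with bases inside the GENCODE gene left off. *Lyz1* is the neighbouring, near-identical copy of *Lyz2*. Capitals mark matches on either strand to GAGGAA (a core of sites for PU.1, the ETS factor of myeloid cells), TGANTCA (the core of AP-1 sites), CACGTG (an E-box bound by lysosomal gene regulators of the MiT family), or TTGCNNAA (a core of C/EBP sites).
Itgax, chr7:128129300-128129546, plus strand: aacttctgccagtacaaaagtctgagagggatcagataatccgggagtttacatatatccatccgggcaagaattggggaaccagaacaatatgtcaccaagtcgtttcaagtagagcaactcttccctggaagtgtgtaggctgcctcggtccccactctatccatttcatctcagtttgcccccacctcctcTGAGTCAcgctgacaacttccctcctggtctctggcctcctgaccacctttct
Cd68, chr11:69666171-69666420, minus strand: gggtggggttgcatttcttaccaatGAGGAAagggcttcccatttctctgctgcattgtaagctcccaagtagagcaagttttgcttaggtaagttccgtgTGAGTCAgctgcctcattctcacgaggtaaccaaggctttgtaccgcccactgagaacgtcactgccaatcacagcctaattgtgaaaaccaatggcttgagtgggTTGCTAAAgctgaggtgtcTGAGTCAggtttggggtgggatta
Lyz2, chr10:117282322-117282522, minus strand: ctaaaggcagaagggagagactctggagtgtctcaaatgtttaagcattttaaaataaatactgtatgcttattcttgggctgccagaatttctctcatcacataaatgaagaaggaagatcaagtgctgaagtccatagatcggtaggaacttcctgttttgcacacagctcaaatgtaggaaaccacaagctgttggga
Lyz1, chr10:117292869-117293118, minus strand: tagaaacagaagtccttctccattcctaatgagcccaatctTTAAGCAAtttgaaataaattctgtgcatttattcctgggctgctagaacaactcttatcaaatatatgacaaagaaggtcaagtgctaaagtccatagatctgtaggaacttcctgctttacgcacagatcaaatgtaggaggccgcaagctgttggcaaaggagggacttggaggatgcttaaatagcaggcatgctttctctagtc
Spp1, chr5:104434861-104435110, plus strand: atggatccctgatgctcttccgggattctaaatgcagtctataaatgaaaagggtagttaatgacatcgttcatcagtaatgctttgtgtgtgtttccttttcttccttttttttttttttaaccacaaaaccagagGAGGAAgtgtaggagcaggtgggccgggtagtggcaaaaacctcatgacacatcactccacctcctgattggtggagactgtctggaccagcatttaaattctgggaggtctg

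*Cd68* held a GAGGAA match 225 bases before its start, TGANTCA matches at 149 and 24 bases, and a TTGCNNAA match at 43 bases. *Itgax* held 1 TGANTCA match, 56 bases before the start, and *Spp1* held 1 GAGGAA match at 113 bases. *Lyz2* held no match to any of the 4 motifs, whereas *Lyz1* held 1 match to TTGCNNAA at 209 bases. Over 250 bases, the upstream sequences of *Lyz2* and *Lyz1* were identical in 200 of 252 aligned columns (79.4%). Windows of this kind were found for 9 of the 10 members. That of *Lgals3* lay wholly inside its GENCODE gene and held no match. Matches were counted over all 250 bases, those inside a gene included. GAGGAA stood in the window before the first listed start of 5 of the 9, against 23.3% of the 32851 windows of all genes. Those 32851 hold a window for every listed start, not for the first alone. TGANTCA stood in 3 of the 9 (*Cd68*, *Itgax*, and *Trem2*) against 6.75% of windows, TTGCNNAA in 1 against 9.56%, and CACGTG in 0 against 6.02%. No 2 matches in the printed lines overlapped. These are matches of letters, not binding sites.

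Of the 10 members, 7 were higher with AAV5-*V1+V2* and none was lower (edgeR's quasi-likelihood test, Benjamini-Hochberg adjusted p under 0.05). Of all 18593 genes tested, 10.1% were higher and 5.27% lower by the same rule. The 7 were *Itgax*, *Lyz2*, *Plac8*, *Ly6c2*, *Cd68*, *Gpnmb*, and *Cd14*, with log2 fold changes from 1.77 to 3.14. *Trem2*, *Lgals3*, and *Spp1* did not pass. The median log2 fold change was 2.22 over the 10 members and -0.0003 over all genes tested. In 8 members every AAV5-*V1+V2* library lay above every AAV5-*Gfp* library, as it did in 23.4% of all genes. At an unadjusted p under 0.05, 9 members were higher and 0 were lower, against 19.2% and 15.5% of all genes tested.

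These calls rested on all 3 control libraries. Without AAV5-*Gfp* replicate 1, only *Itgax* of the 7 was called, and without replicate 2 or without replicate 3 the count was 0, although 8, 9, and 8 members remained higher at an unadjusted p under 0.05. Of all genes tested in these fits, 3086 of 18975, 2916 of 18917, and 2932 of 18947 were higher at that level. Across the whole table the number of genes called higher fell from 1872 to 257, 12, and 15 in the same fits. The fold changes of the 7 moved less: without a control library *Itgax* stood at 3.26, 3.29, and 2.89 on the log2 scale. AAV5-*V1+V2* replicate 1 had the highest level of 9 of the 10 members, and leaving it out left 7 members called.

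**Figure D1:**
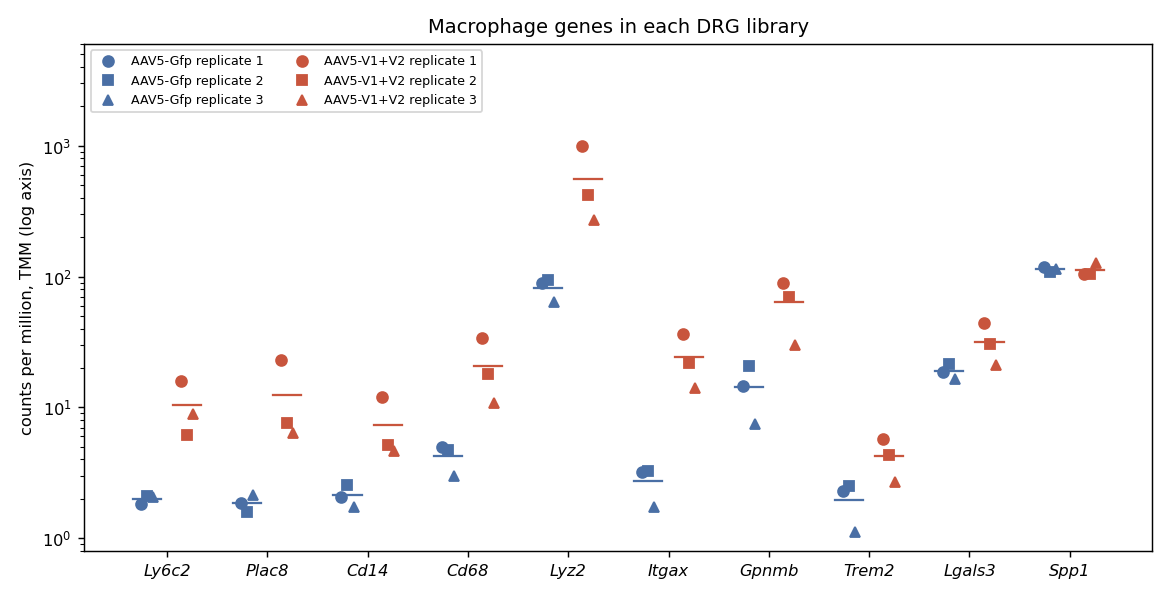
Level of each gene in each of the 6 libraries, in CPM after TMM normalization on a log axis, with horizontal bars at the group means of 3 libraries. The 3 AAV5-*V1+V2* libraries lie above the 3 AAV5-*Gfp* libraries in 8 genes, while those of *Lgals3* and *Spp1* overlap.

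Among the monocyte genes, *Ly6c2* encodes one of the Ly-6C surface proteins, which are anchored in the membrane by a lipid. It had 1.83, 2.11, and 2.08 CPM in AAV5-*Gfp* replicates 1, 2, and 3, and 15.9, 6.16, and 8.98 CPM in AAV5-*V1+V2* replicates 1, 2, and 3. The control libraries lay close together, and each AAV5-*V1+V2* library was at least 2.92 times the highest of them. *Ly6c2* was 5.15-fold higher in the fit (log2 fold change 2.37 ± 0.34 SE, n = 3 per group, edgeR adjusted p = 0.0144). The gene spans chr15:75108158-75111970 on the minus strand and overlaps no other annotated gene (GRCm38, GENCODE M21).

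Its copy *Ly6c1*, at chr15:75044018-75048830, has a transcript 95.0% identical to that of *Ly6c2*, and 32.6% of the 50-base windows of *Ly6c2* also stand in it. How reads that match both were counted is not given in the sources used here, so the split between them is uncertain. *Ly6c1*, which endothelial cells also express, had 12.5 ± 1.46 CPM (SD) in the control libraries and 14.2 ± 1.36 CPM with AAV5-*V1+V2* (log2 fold change 0.18 ± 0.12 SE, edgeR adjusted p = 0.315). Counts on *Ly6c2* came to 14.6%, 19.0%, and 14.9% of those on *Ly6c1* with AAV5-*Gfp* and to 101%, 46.8%, and 65.4% with AAV5-*V1+V2*. The ratio thus moved in every library, and its exact two-sided permutation p of 0.1 is the smallest that 3 against 3 libraries can give.

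*Plac8* encodes a small cysteine-rich protein that is abundant in monocytes and granulocytes. It had 1.86, 1.59, and 2.15 CPM in the AAV5-*Gfp* libraries and 23.2, 7.63, and 6.41 CPM in the AAV5-*V1+V2* libraries. The groups did not overlap, and replicate 1 of AAV5-*V1+V2* stood 3.62 times above replicate 3. *Plac8*, at chr5:100553725-100572245 on the minus strand, was 6.66-fold higher (log2 fold change 2.74 ± 0.51 SE, n = 3 per group, edgeR adjusted p = 0.0204). Without AAV5-*V1+V2* replicate 1 it was 3.78-fold higher (adjusted p = 0.00133).

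*Cd14* encodes a surface protein that hands bacterial lipopolysaccharide to the receptor TLR4. It had 2.08, 2.57, and 1.73 CPM in the AAV5-*Gfp* libraries and 12.1, 5.17, and 4.64 CPM in the AAV5-*V1+V2* libraries. Again replicate 1 was the highest and no library of one group reached into the other. *Cd14* was 3.42-fold higher (log2 fold change 1.77 ± 0.39 SE, n = 3 per group, edgeR adjusted p = 0.0289). In limma-voom, *Cd14* and *Plac8* missed the threshold (adjusted p of 0.0529 and 0.0512).

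Of the phagocyte genes, *Cd68* encodes a glycoprotein of the lysosomal membrane and is a standard marker of macrophages in DRG sections. *Cd68* had 5.02, 4.76, and 2.98 CPM in the AAV5-*Gfp* libraries and 33.7, 17.9, and 10.8 CPM in the AAV5-*V1+V2* libraries. Replicate 3 was the lowest library within each group, and the groups did not overlap. The gene, at chr11:69664213-69666153 on the minus strand, was 4.88-fold higher (log2 fold change 2.29 ± 0.42 SE, n = 3 per group, edgeR adjusted p = 0.0193).

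*Lyz2* encodes the lysozyme of myeloid cells, an enzyme that cuts the cell wall of bacteria. It was the most abundant of the 7 genes called, with 89.4, 93.7, and 64.1 CPM in the AAV5-*Gfp* libraries and 989, 418, and 272 CPM in the AAV5-*V1+V2* libraries. The lowest AAV5-*V1+V2* library was 2.90 times the highest control library, while the AAV5-*V1+V2* libraries themselves spanned 3.64-fold. *Lyz2*, at chr10:117277331-117282321 on the minus strand, was 6.79-fold higher (log2 fold change 2.76 ± 0.46 SE, n = 3 per group, edgeR adjusted p = 0.0167). Without AAV5-*V1+V2* replicate 1 it was 4.19-fold higher (adjusted p = 0.00221).

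*Lyz1*, the other lysozyme gene, is best known from Paneth cells of the intestine and lies on the same strand, with its start 10547 bases from that of *Lyz2*. It had 1.74, 1.39, and 0.737 CPM in the AAV5-*Gfp* libraries and 68.6, 24.2, and 27.3 CPM in the AAV5-*V1+V2* libraries. *Lyz1* was 30.9-fold higher (log2 fold change 4.95 ± 0.52 SE, n = 3 per group, edgeR adjusted p = 0.0105), and 19.9-fold higher without AAV5-*V1+V2* replicate 1. Its transcript is 92.0% identical to that of *Lyz2*, and 15.4% of the 50-base windows of *Lyz2* also stand in it, so reads could be divided wrongly between the copies. Whether they were was not tested. Counts on *Lyz1* as a share of those on *Lyz2* came to 1.94%, 1.48%, and 1.15% with AAV5-*Gfp* and to 6.94%, 5.79%, and 10.04% with AAV5-*V1+V2* (exact two-sided permutation p = 0.1, the smallest this design allows).

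Of the genes of the lipid-associated programme, *Itgax* encodes CD11c, the α chain of an integrin that pairs with the β2 chain. It had 3.22, 3.29, and 1.73 CPM in the AAV5-*Gfp* libraries and 36.6, 21.96, and 14.2 CPM in the AAV5-*V1+V2* libraries. No member separated the groups further: the lowest AAV5-*V1+V2* library was 4.32 times the highest control library. *Itgax*, at chr7:128129547-128150657 on the plus strand, was 8.79-fold higher (log2 fold change 3.14 ± 0.40 SE, n = 3 per group, edgeR adjusted p = 0.0139), which was both the largest fold change and the smallest adjusted p among the members.

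*Gpnmb* encodes a membrane glycoprotein of late endosomes and lysosomes, which melanocytes also express. It had 14.6, 20.8, and 7.43 CPM in the AAV5-*Gfp* libraries and 90.0, 70.3, and 29.9 CPM in the AAV5-*V1+V2* libraries. The control libraries spread 2.79-fold, more than for any other member, but did not reach the AAV5-*V1+V2* libraries. *Gpnmb*, at chr6:49036546-49070929 on the plus strand, was 4.43-fold higher (log2 fold change 2.15 ± 0.47 SE, n = 3 per group, edgeR adjusted p = 0.0288), and without AAV5-*V1+V2* replicate 2 its adjusted p was 0.0698. Melanocyte genes were near the limit of detection. *Pmel* was the only one of 4 to pass the filter, and the sum of the 4 ranged from 1.27 to 1.77 CPM with AAV5-*Gfp* and from 1.26 to 2.28 CPM with AAV5-*V1+V2*.

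*Trem2* encodes the receptor for lipids and lipoproteins after which the programme is often named. It had 2.29, 2.51, and 1.12 CPM in the AAV5-*Gfp* libraries and 5.74, 4.30, and 2.71 CPM in the AAV5-*V1+V2* libraries. The groups did not overlap, but only just, since the lowest AAV5-*V1+V2* library was 1.08 times the highest control library. *Trem2*, at chr17:48346401-48354147 on the plus strand, did not pass the test (log2 difference 1.10 ± 0.36 SE, n = 3 per group, edgeR adjusted p = 0.0803). Its adjusted p was 0.0243 in DESeq2 and 0.0343 without AAV5-*V1+V2* replicate 3.

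*Lgals3* encodes galectin-3, a protein that binds β-galactosides and gathers on damaged lysosomes. It had 18.7, 21.5, and 16.5 CPM in the AAV5-*Gfp* libraries and 43.9, 30.5, and 21.0 CPM in the AAV5-*V1+V2* libraries, so that replicate 3 of AAV5-*V1+V2* lay within the control range. *Lgals3*, at chr14:47367751-47386160 on the plus strand, did not pass the test (log2 difference 0.75 ± 0.25 SE, n = 3 per group, edgeR adjusted p = 0.0813). Its adjusted p was 0.0162 in DESeq2 and 0.0141 without AAV5-*V1+V2* replicate 3.

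*Spp1* encodes osteopontin, a secreted protein that binds integrins and CD44. It had 118, 109, and 115 CPM in the AAV5-*Gfp* libraries and 106, 105, and 126 CPM in the AAV5-*V1+V2* libraries. All 6 libraries lay close together, and the highest and the lowest both had AAV5-*V1+V2*. The log2 difference was -0.02 ± 0.09 SE (n = 3 per group, edgeR adjusted p = 0.860), and its sign turned with the scaling (0.03 with total counts only). *Spp1*, at chr5:104435118-104441050 on the plus strand, overlaps the annotated gene *Gm42793* on the same strand, which had 0 counts in all 6 libraries. In its values *Spp1* stood apart from the other members, so the 10 genes are treated here as a list and not as the profile of a cell type.

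**Figure D2:**
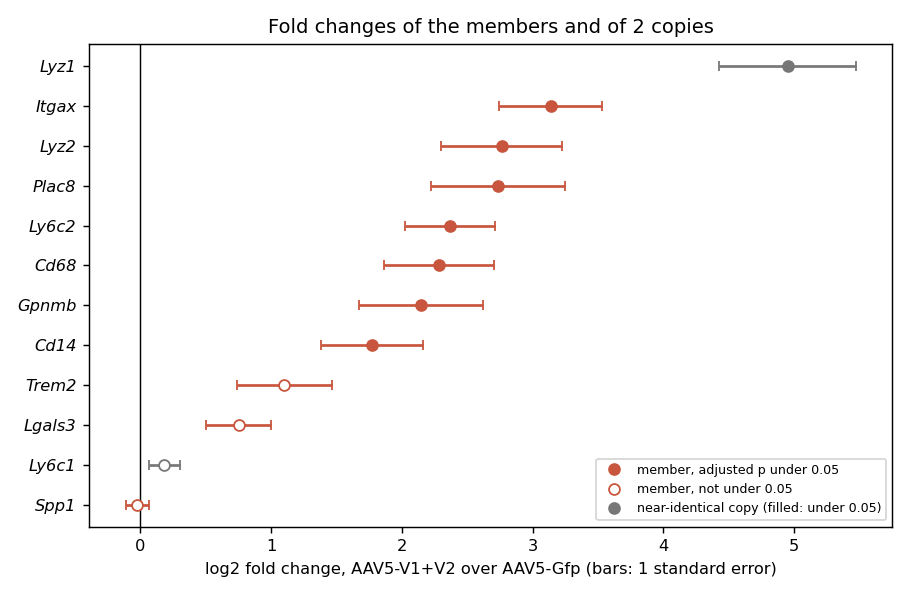
Log2 fold change of AAV5-*V1+V2* over AAV5-*Gfp* for the 10 genes and for the copies *Lyz1* and *Ly6c1* (grey), with bars of 1 SE on each side. Filled points had an adjusted p under 0.05, and among the members they run from *Cd14* at 1.77 to *Itgax* at 3.14.

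Counts of different genes depend on transcript length, so levels are given here as CPM per kilobase of annotated exon. That length joins the exons of all annotated transcripts of a gene and can exceed that of the transcript expressed. For *Ly6c2* it is 2740 bases, against 822 for its longest protein-coding transcript. The order below holds for this choice of length, and no other was tested. On this scale *Spp1* had the highest level in the AAV5-*Gfp* libraries, at 69.4 ± 2.75 (SD, n = 3). *Lyz2* followed at 62.6 ± 12.2, and its libraries overlapped those of *Spp1*. *Lgals3* came next at 10.2 ± 1.36 and overlapped no other member. *Cd68* (3.38 ± 0.883) and *Gpnmb* (2.19 ± 1.02) followed and overlapped each other. *Cd14* (1.23 ± 0.243) and *Plac8* (1.17 ± 0.176) could not be separated from each other or from the lowest *Gpnmb* library. *Ly6c2* (0.732 ± 0.0564), *Itgax* (0.572 ± 0.183), and *Trem2* (0.399 ± 0.151) were the lowest, and each overlapped its neighbour.

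With AAV5-*V1+V2* the order per kilobase began with *Lyz2* at 425 ± 288, above *Spp1* at 68.2 ± 7.32 in every library. *Lgals3* (17.1 ± 6.20) and *Cd68* (16.5 ± 9.32) overlapped each other, and both overlapped *Gpnmb* (9.73 ± 4.70) and *Plac8* (7.80 ± 5.89). *Gpnmb*, *Plac8*, and *Itgax* (5.05 ± 2.37) also overlapped. *Cd14* (4.21 ± 2.39) and *Ly6c2* (3.78 ± 1.84) followed, and their libraries overlapped each other and those of *Itgax*, *Plac8*, and *Gpnmb*. On this scale of exon length, *Trem2* had the lowest mean in both groups, at 0.859 ± 0.307 with AAV5-*V1+V2*, where it overlapped no other member.

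The members also varied together within the AAV5-*V1+V2* group. Replicate 1 was the highest library in 9 of 10 members, the exception being *Spp1*. Replicate 2 lay above replicate 3 in 8 members, with *Ly6c2* and *Spp1* as the exceptions. Among the control libraries, replicate 3 was the lowest in 7 members. The ratio of the highest to the lowest AAV5-*V1+V2* library ran from 1.20 in *Spp1* to 3.64 in *Lyz2*.

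Genes that work with the members were examined as 6 lists, 59 genes in all, each of which was tested. Of these, 24 were higher and 0 lower with AAV5-*V1+V2*, and 0 were lower in any of the alternatives run. The median log2 fold change over the 59 was 0.50. The total of 24 became 3, 0, and 0 without AAV5-*Gfp* replicates 1, 2, and 3, and 15 without AAV5-*V1+V2* replicate 2, when the lipid-associated list fell from 7 genes called to 2. The examples below are among those with the smallest adjusted p of their list in edgeR's quasi-likelihood test, except *Tyrobp*, *Syk*, *Apoe*, *Ccr2*, and *Cd44*, which were chosen after their values were seen.

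TREM2 has no signalling domain of its own and acts through partner proteins. Of 10 genes for its adaptors, enzymes, ligand, and proteases, 7 were higher, with a median log2 fold change of 1.77. *Trem2* itself did not pass, and in whole ganglia the cells behind these counts cannot be told. Markers of B cells and of T and NK cells were higher too, with median log2 fold changes of 3.42 and 3.33, and their part was not tested. *Ms4a6d*, a membrane protein of myeloid cells, had 2.36 ± 0.197 CPM (SD, n = 3) with AAV5-*Gfp* and 13.1 ± 5.92 CPM with AAV5-*V1+V2* (log2 fold change 2.47 ± 0.33 SE, adjusted p = 0.0144). *Inpp5d*, which encodes the lipid phosphatase SHIP1, rose from 25.5 ± 1.03 to 84.1 ± 34.3 CPM (1.72 ± 0.26, adjusted p = 0.0144). *Plcg2*, which encodes a phospholipase downstream of SYK, rose from 16.9 ± 0.390 to 59.4 ± 26.7 CPM (1.81 ± 0.28, adjusted p = 0.0149).

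The adaptor and the kinase of the receptor, *Tyrobp* and *Syk*, were higher by 2.01 ± 0.35 and 2.38 ± 0.39 on the log2 scale (adjusted p of 0.0172 and 0.0159), and *Syk* was 3.42-fold higher without AAV5-*V1+V2* replicate 1 against 5.19-fold with it. *Apoe*, a lipoprotein that TREM2 binds and that DRG satellite glia express strongly, had 1631 ± 120 CPM with AAV5-*Gfp* and 1650 ± 78.3 CPM with AAV5-*V1+V2* (log2 difference 0.02 ± 0.11, adjusted p = 0.923). Its sign turned with upper quartile scaling and without AAV5-*Gfp* replicate 2 (-0.0079 and -0.04).

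Of 15 further genes of the lipid-associated programme, 7 were higher and the median log2 fold change was 0.50. *Lilrb4a*, an inhibitory receptor of myeloid cells, rose from 9.13 ± 1.62 to 47.1 ± 28.1 CPM (log2 fold change 2.36 ± 0.41 SE, adjusted p = 0.0172). *Clec7a*, the receptor for fungal β-glucan known as dectin-1, rose from 2.62 ± 0.723 to 13.3 ± 9.37 CPM (2.34 ± 0.50, adjusted p = 0.0278). Without AAV5-*V1+V2* replicate 1 the fold changes of *Lilrb4a* and *Clec7a* were 3.42 and 3.04, against 5.15 and 5.05 with it. *Cd63*, a tetraspanin of late endosomes, changed less, from 22.3 ± 0.902 to 33.7 ± 5.59 CPM (0.60 ± 0.12, adjusted p = 0.0243). The 7 genes called thus fell into 3 with log2 fold changes above 2 and 4 between 0.31 and 0.63. The 8 genes not called include those for fatty acid carriers, a lipid droplet coat protein, and the exporters of cholesterol, with log2 differences from -0.12 to 0.67.

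Of 12 monocyte genes, 5 were higher, with a median over the list of 0.64. The other 7 did not pass, with log2 differences from -0.02 to 1.36. The gene at 1.36 had means of only 0.30 CPM with AAV5-*Gfp* and 0.77 CPM with AAV5-*V1+V2*, and the next stood at 0.93. The genes named here are all among those called. *Spn*, which encodes the sialylated surface protein CD43, rose from 2.28 ± 0.386 to 12.0 ± 5.12 CPM (log2 fold change 2.39 ± 0.31 SE, adjusted p = 0.0141). *Ms4a4c* rose from 1.07 ± 0.373 to 10.5 ± 7.53 CPM (3.30 ± 0.54, adjusted p = 0.0159), which was 9.88-fold, or 5.84-fold without AAV5-*V1+V2* replicate 1. *Ccr2*, the receptor that draws monocytes toward the chemokine CCL2, was 3.49-fold higher (1.80 ± 0.37, adjusted p = 0.0248).

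Of 8 co-receptors and adaptors of CD14, 2 were higher, or 1 without AAV5-*V1+V2* replicate 2, 4 without AAV5-*V1+V2* replicate 3, 0 with any 1 of the AAV5-*Gfp* libraries left out, and 4 in DESeq2 or with no filter. *Tlr4*, the signalling receptor itself, rose from 17.3 ± 0.992 to 23.9 ± 2.02 CPM (log2 fold change 0.46 ± 0.09 SE, adjusted p = 0.0225). *Lbp*, which encodes a carrier of lipopolysaccharide, rose from 33.4 ± 1.76 to 41.6 ± 3.31 CPM (0.32 ± 0.08, adjusted p = 0.0420). These 2 changes were small beside that of *Cd14*. *Irak4*, a kinase of the same pathway, did not pass (0.56 ± 0.16, adjusted p = 0.0547), but did in DESeq2 (adjusted p = 0.0151), with no filter, and with total counts only.

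Of 9 partners of osteopontin and CD11c, 3 were higher. *Itgb2*, which encodes the β2 chain that pairs with CD11c, rose from 10.5 ± 0.449 to 58.9 ± 37.3 CPM (log2 fold change 2.49 ± 0.41 SE, adjusted p = 0.0159), a 5.60-fold change that became 3.58-fold without AAV5-*V1+V2* replicate 1. *Icam1*, a ligand of β2 integrins, rose from 5.46 ± 0.821 to 27.6 ± 13.9 CPM (2.34 ± 0.35, adjusted p = 0.0144). *Itga4*, the α4 chain of leukocyte integrins that bind osteopontin, rose from 24.1 ± 1.47 to 88.3 ± 33.0 CPM (1.87 ± 0.24, adjusted p = 0.0140). The remaining 6 genes of the list, among them the hyaluronan and osteopontin receptor *Cd44* (0.21 ± 0.12, adjusted p = 0.259), did not pass.

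Of 5 galectin genes, 0 were called in either direction. *Lgals3bp*, which encodes a secreted protein that binds galectin-3, came nearest (log2 difference 0.67 ± 0.19 SE, adjusted p = 0.0554) and had no overlap between the groups. It passed in 6 of the 14 alternatives, with an adjusted p of 0.00710 in DESeq2, 0.0296 without AAV5-*V1+V2* replicate 1, and 0.0166 without AAV5-*V1+V2* replicate 3. *Lgals8* and *Lgals1* differed by -0.14 ± 0.07 and -0.07 ± 0.07 (adjusted p of 0.209 and 0.490).

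**Figure D3:**
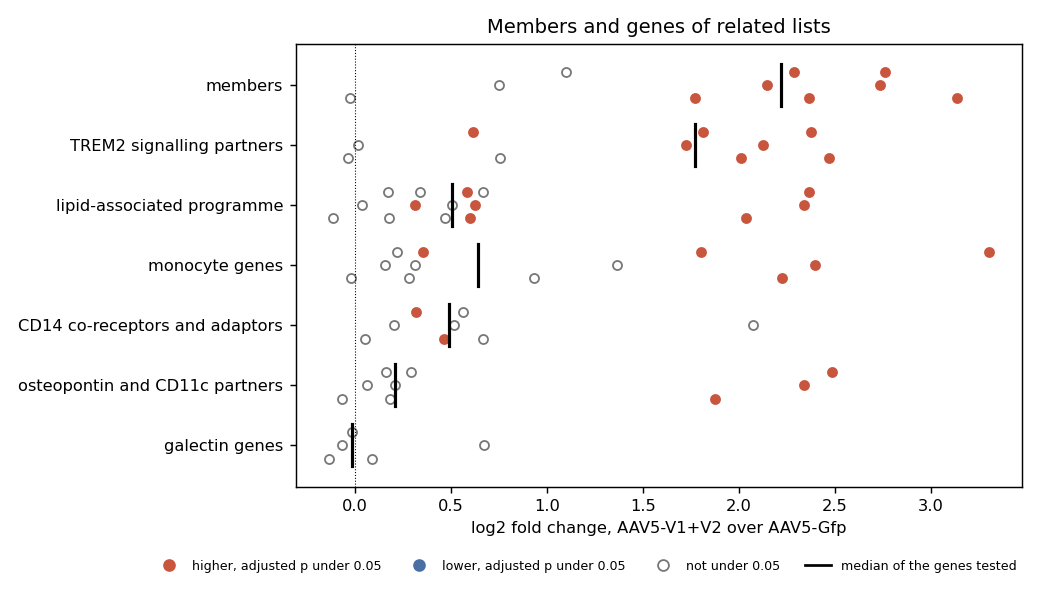
Log2 fold changes of AAV5-*V1+V2* over AAV5-*Gfp* for the 10 genes (members, top line) and for each gene of the 6 related lists, 1 point per gene, with black bars at the medians. Filled points were higher at an adjusted p under 0.05, and none was lower. Most lists hold genes above 1.5 beside genes near 0, and the TREM2 partners have the highest median of the related lists (1.77).

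Some genes listed as markers of resident macrophages were also higher with AAV5-*V1+V2*, and the members were set against the whole list within each library. In whole ganglia, resident and recruited macrophages cannot be told apart by these markers. The ratios below thus do not set recruited against resident cells. Of the markers called, *Mrc1* changed least (log2 fold change 0.41 ± 0.09 SE, edgeR adjusted p = 0.0287). Of 8 markers, 4 were higher and 0 lower, with a median log2 fold change of 0.56, and their summed level was 193 to 204 CPM with AAV5-*Gfp* and 270 to 418 CPM with AAV5-*V1+V2*. *Aif1*, which encodes the macrophage protein IBA1, and *Adgre1*, which encodes F4/80, were higher by 1.66 ± 0.27 and 1.66 ± 0.28 on the log2 scale (edgeR adjusted p of 0.0155 and 0.0168), whereas *Cx3cr1*, *Cd163*, *Lyve1*, and *Mertk*, named after their values were seen, did not pass (log2 differences of 0.71, 0.05, 0.09, and 0.21, with the sign for *Cd163* turning to -0.07 without AAV5-*Gfp* replicate 1). *Cx3cr1* passed in DESeq2 and without AAV5-*V1+V2* replicate 3 (adjusted p of 0.00491 and 0.0257). The mean log2 CPM of the 8 was 3.91, 3.88, and 3.82 in the control libraries and 4.90, 4.63, and 4.42 in the others, a difference of 0.78 (exact two-sided permutation p = 0.1, the smallest possible).

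Relative to that mean, *Itgax* stood at -2.19, -2.14, and -2.98 on the log2 scale with AAV5-*Gfp* and at 0.29, -0.17, and -0.58 with AAV5-*V1+V2*, a difference of 2.28 between the group means. *Lyz2* stood at 2.57, 2.67, and 2.19 against 5.05, 4.08, and 3.67, a difference of 1.79. The differences were 1.68 for *Plac8*, 1.45 for *Ly6c2*, 1.37 for *Cd68*, and 0.85 for *Cd14*, and in each of these 6 genes the groups did not overlap. On this scale the share of all genes without overlap was not counted, and the mean of the markers itself did not overlap between the groups. The differences depend on the markers averaged. The mean of the 8 rose by 0.78, but *Csf1r*, *Adgre1*, and *Aif1* by 1.51, 1.66, and 1.66, so differences from those markers alone would be smaller. *Cd14*, with a log2 fold change of 1.77, rose little more than they did. *Gpnmb* differed by 1.34, but its libraries overlapped by a narrow margin (exact permutation p = 0.2).

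*Spp1* stood at 2.98, 2.89, and 3.03 with AAV5-*Gfp* and at 1.82, 2.09, and 2.57 with AAV5-*V1+V2*, a difference of -0.81 in the other direction, also without overlap. The level of *Spp1* itself differed by only -0.02 on the log2 scale, while the mean of the markers was higher by 0.78. *Trem2* and *Lgals3* overlapped, with differences of 0.32 and -0.09 (exact permutation p of 0.5 and 0.7). Against *Csf1r* alone, *Trem2* differed by -0.34, and against the 8 markers without AAV5-*Gfp* replicate 3 by -0.0085. The sign for *Lgals3* turned without AAV5-*Gfp* replicate 2 and without AAV5-*V1+V2* replicate 3 (0.0049 and 0.06). The 7 genes without overlap have no share of all genes on this scale to be set against. They had the smallest exact p that the design allows, 0.1, or 0.143 after Benjamini-Hochberg adjustment over the 10. No difference in this comparison could thus reach 0.05.

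**Figure D4:**
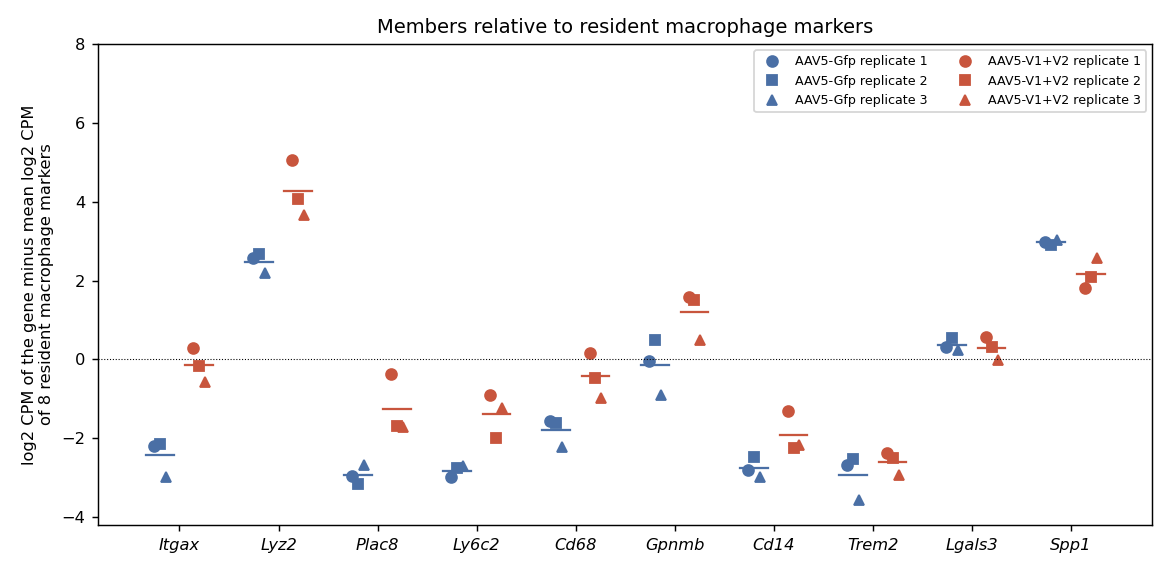
Log2 CPM of each gene minus the mean log2 CPM of 8 resident macrophage markers in the same library, for the 6 libraries, with bars at the group means of 3. *Itgax*, *Lyz2*, *Plac8*, *Ly6c2*, *Cd68*, and *Cd14* lie higher in every AAV5-*V1+V2* library than in any AAV5-*Gfp* library. *Spp1* lies lower on this scale, where the mean of the markers was higher and its own level hardly differed.

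Of 28 markers of other immune cells, 18 were higher in the same libraries and 10 did not pass. Their part in the values of the members and of the related genes was not tested. All 6 B cell markers were higher, with a median log2 fold change of 3.42 and a summed level of 10.8 to 17.7 CPM with AAV5-*Gfp* against 87.6 to 210 CPM with AAV5-*V1+V2*. *Ms4a1*, which encodes CD20, and *Cd79b*, a chain of the B cell receptor, were higher by 5.49 ± 0.54 and 3.24 ± 0.36 (edgeR adjusted p of 0.00803 and 0.0138). Of 7 T and NK cell markers, 5 were higher, with summed levels of 2.65 to 7.19 CPM against 24.6 to 56.4 CPM. *Cd4* was higher by 3.33 ± 0.42 and *Cd3e*, a chain of the T cell receptor complex, by 3.88 ± 0.54 (edgeR adjusted p of 0.0139 and 0.0144), or by 4.52 for *Cd3e* without AAV5-*Gfp* replicate 1.

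Dendritic cell markers bear on *Itgax*, and 5 of 7 were higher, or 6 in DESeq2, with a median log2 fold change of 1.26. Their summed level was 53.6 to 59.3 CPM with AAV5-*Gfp* against 74.2 to 98.6 CPM with AAV5-*V1+V2*. *Flt3* and *Zbtb46*, named after their values were seen, did not pass (log2 differences of 0.15 and 0.34, edgeR adjusted p of 0.209 and 0.0563). *Xcr1*, a chemokine receptor of cross-presenting dendritic cells, was higher by 2.55 ± 0.36 and *Ccr7*, a gene of the same list, by 3.39 ± 0.56 (edgeR adjusted p of 0.0144 and 0.0165), or by 2.70 for *Ccr7* without AAV5-*V1+V2* replicate 1. Which cells the *Ccr7* counts came from was not tested. Neutrophil markers bear on *Lyz2* and *Plac8*, and 2 of 8 were higher, with a summed level of 113 to 127 CPM against 162 to 323 CPM. *Csf3r*, the receptor for the growth factor of granulocytes, was higher by 1.50 ± 0.37, or by 0.91 without AAV5-*V1+V2* replicate 1, and *Camp*, a granule peptide, by 0.92 ± 0.25 (edgeR adjusted p of 0.0376 and 0.0486). No marker of these lists had 0 counts in all libraries.

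In the lists of other DRG cells, few genes were called. Of 6 sensory neuron markers, 1 was lower and 0 higher, against 5.27% and 10.1% of all genes tested. All 6 had log2 differences below 0, from -0.93 to -0.22, with a median of -0.41. Their summed level was 3643 to 4032 CPM with AAV5-*Gfp* against 2300 to 3341 CPM with AAV5-*V1+V2*. The gene called was *Rbfox3*, which encodes NeuN (-0.93 ± 0.19, edgeR adjusted p = 0.0256). Satellite glia, Schwann cell, and erythrocyte markers had 0 genes called in either direction among 4, 6, and 5 tested, with medians of -0.16, 0.03, and 0.11. Without AAV5-*Gfp* replicate 2 or replicate 3, 0 genes of any marker list were called. Without AAV5-*Gfp* replicate 1, 6 B cell markers and 6 T and NK cell markers were higher. In that fit 1 resident macrophage, 2 dendritic cell, and 0 neutrophil markers were higher and 0 neuron markers lower. Without AAV5-*V1+V2* replicate 2, 3 dendritic cell and 0 neutrophil markers were higher and 0 neuron markers lower. Without AAV5-*V1+V2* replicate 1 or replicate 3, 4 or 5 neutrophil markers were higher and 3 or 2 neuron markers lower. DESeq2 called 6 neutrophil markers higher and 3 neuron markers lower, whereas limma-voom called 0 neutrophil markers.

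**Figure D5:**
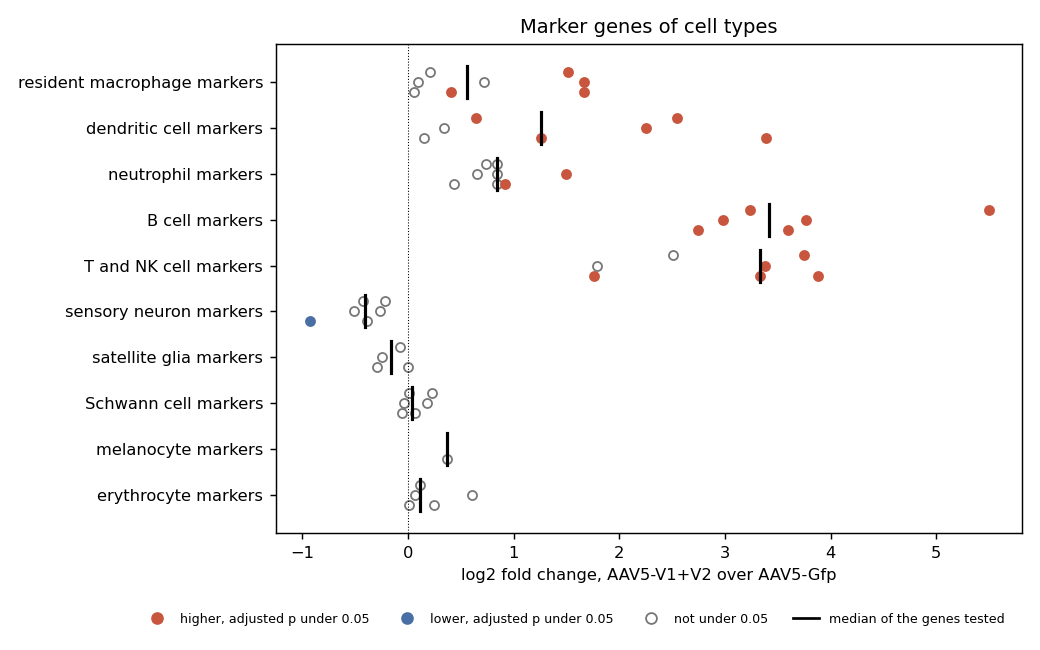
Log2 fold changes of AAV5-*V1+V2* over AAV5-*Gfp* for the marker genes of 10 cell types, 1 point per gene, with black bars at the medians. B cell and T and NK cell markers have medians above 3, resident macrophage markers spread from 0.05 to 1.66, and 1 sensory neuron gene was called lower.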

How the data were processed

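RNA sequencing of DRGs was analysed in 6 libraries, 3 for each virus treatment, grouped by the labels' titles. Stranded libraries had been made from total RNA. The authors deposited raw counts of reads per gene symbol, as whole numbers without normalization, all libraries in 1 table. Per the labels, the submitters' processing notes name the builds GRCm 38 and mm 10. The aligner, the counter, the annotation, the use of strand, and the handling of reads that match several genes are not given in the sources used here.

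Genes passing filterByExpr were compared by the quasi-likelihood test (glmQLFit, glmQLFTest) with TMM factors in R 4.3.3 with edgeR 4.0.16, without covariates. Benjamini-Hochberg adjustment covered all genes tested, with a threshold of 0.05. SEs were taken from the log2 coefficient and its F statistic (coefficient over root F). Log2 CPM used a prior count of 2. The count test was tested on simulated data. Chi-square values per degree of freedom between libraries of one group ran from 8.27 to 48.9, so every pair differed by more than sampling noise. Intervals from counts would cover counting error only. Gene positions and exon lengths came from GENCODE M21, transcripts were aligned with Biopython 1.88, and upstream sequences came from RefSeq.

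The members, lists, and tests were chosen with earlier results of these data known. Named genes were all members, *Lyz1* and *Ly6c1*, at most 3 genes of each related list and 2 of each cell type list, by adjusted p, every related gene called lower, and any defining gene at 0. One gene that this rule names is not reported here. Alternatives covered scaling, filters, DESeq2 1.42.0, limma-voom (limma 3.58.1), a replicate block, and leaving out each library.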

Additional observations from a re-analysis of the deposited data

How the results depend on the processing

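The number of members called higher was 7, and 5 to 9 under the 8 other scalings, filters, and tests. Leaving out 1 library gave 0 to 9 members, 0 to 33 related genes (24 with all libraries), 12 to 2474 genes higher (1872), and 0 to 1446 lower (980). The low ends came from leaving out AAV5-*Gfp* replicate 2 or 3, and the cause was not tested. At an unadjusted p under 0.05, edgeR's quasi-likelihood test then still had 2916 of 18917 and 2932 of 18947 genes higher, and 2029 and 1815 lower. DESeq2 called 1606 genes lower. No member and no related gene was called lower under any of the 14 alternatives, and at an unadjusted p under 0.05 0 members were lower in each. The log2 fold changes of the 7 members called lay between 1.20 and 3.42 throughout. Values that changed sign were not called in any setting: *Spp1* was at 0.0327 with total counts only and from -0.107 to 0.0315 with 1 library left out, and *Apoe* at -0.0079 with upper quartile scaling and from -0.0367 to 0.0708 with 1 library left out, and *Cd163* from -0.073 to 0.146 in the same way. Relative to resident markers, *Trem2* was at -0.34 against *Csf1r* alone, and with 1 library left out *Trem2* ran from -0.0085 to 0.519 and *Lgals3* from -0.224 to 0.0632. Over the named genes outside the 10 and all alternatives, 459 fold changes stayed on their side of the threshold, 83 lost it, and 15 passed it.

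The labels number the libraries 1 to 3 in both groups. Deviations of same-numbered libraries from their group means correlated by 0.04, 0.07, and 0.11. For libraries of different number the correlations ran from -0.104 to 0.0433, most of them negative. The highest of these was between AAV5-*V1+V2* replicate 1 and AAV5-*Gfp* replicate 2, above the 0.04 for the same number. The numbers were not taken as pairs, and whether they mark a shared origin was not tested. A replicate block called 9 members and 28 related genes higher (*Lgals3bp* and *Irak4* passed, with adjusted p of 0.0229 and 0.0435, as did the resident marker *Cx3cr1* at 0.00395, and *Lbp* did not, at 0.0607) and 2118 genes higher and 1341 lower in all. With total counts only, 74.6% of the genes called were higher, against 65.6% with TMM.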
